A study of Homo sapiens with 8 samples.

Results

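SRF (serum response factor) and 9 genes of the actin cytoskeleton, ACTA2, ACTB, TAGLN, CNN1, MYL9, TPM1, VCL, FLNA and MYH9, were followed through an RNA-seq experiment on triple-negative breast cancer cells exposed to Acetalax. They were chosen by symbol, each matched 1 row of the deposited count table, and together they are 10 of its 55679 gene identifiers. Acetalax, oxyphenisatin acetate by its chemical name, is a stimulant laxative of the diphenyl oxindole class. RNA came from 2 established lines, MDA-MB468 and BT549, each as parental cells and as cells grown in stepwise higher Acetalax up to 40 μmol/L and then kept without the drug for 2 weeks (chronic exposure, CE). Each of these 4 backgrounds gave 1 library of untreated cells (control) and 1 of cells given 1 μmol/L Acetalax 6 hours earlier, 8 libraries in all. The CE cells of a line are 1 resistant population derived from its parental cells and not an independent line. No vehicle for the control cells is named in the labels, and all results are on RNA, since no protein was measured in these files.

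SRF is a transcription factor that binds the CArG box, a short A/T-rich element flanked by CC and GG. It works with cofactors of 2 kinds. Myocardin-related factors (MRTFs, encoded by MKL1 and MKL2) are held in the cytoplasm by monomeric G-actin and reach the nucleus when actin is assembled into filaments, and there they drive genes of actin, myosin and adhesion proteins. Ternary complex factors (TCFs, encoded by ELK1, ELK3 and ELK4) respond to MAP kinase signalling and drive immediate early genes such as EGR1 and FOS. Among the genes followed here, ACTB is the cytoplasmic actin of every cell, ACTA2 the smooth muscle α-actin, TAGLN (transgelin) and CNN1 (calponin) bind actin filaments in contractile cells, and MYL9 is a regulatory light chain of myosin and MYH9 a heavy chain of non-muscle myosin. TPM1 (tropomyosin) lies along the filament, VCL (vinculin) links filaments to adhesions and FLNA (filamin A) crosslinks them. In epithelial tumour cells the contractile genes are usually low, and they are part of what distinguishes mesenchymal cells.

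On hg19, SRF (ENSG00000112658) lies on chromosome 6 from 43139037 to 43149243 and FLNA (ENSG00000196924) on chromosome X from 153576892 to 153603006 on the minus strand. ACTA2 (ENSG00000107796) lies on chromosome 10 from 90694831 to 90751147, also on the minus strand. The promoter windows of RefSeq (GRCh38.p14, 250 bases before to 50 after a transcript start) held 7 of the 10 genes, and the sequence of each window was found 1 time near its gene on hg19 (GRCh37). A CArG box was searched as CC, 6 bases that are each A or T, and GG, a pattern that reads the same on both strands. It stood in the window of 2 of the 7 genes, SRF and FLNA, against 1.6% of the 27305 genes that have a window. With 1 inner base allowed to differ, ACTA2 was the third, against 9.88% of all genes. The stretches that carry these boxes are shown because SRF was the gene with the clearest rise after Acetalax, FLNA the one whose response differed most clearly between the lines, and ACTA2 a gene nearly without counts in one line and well counted in the other. They are written 5′ to 3′ on the gene's strand, end upstream of the RefSeq start, and have the boxes in capitals. The SRF stretch is chr6:43138957-43139006, the FLNA stretch chrX:153603067-153603116 and the ACTA2 stretch chr10:90712572-90712671, before a transcript start inside the annotated gene.
SRF: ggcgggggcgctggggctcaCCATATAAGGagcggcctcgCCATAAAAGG
FLNA: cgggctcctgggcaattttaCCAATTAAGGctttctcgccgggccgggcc
ACTA2: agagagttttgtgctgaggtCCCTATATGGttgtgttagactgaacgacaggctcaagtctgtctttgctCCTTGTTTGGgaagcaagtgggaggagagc
The boxes of SRF begin 30 and 10 bases before its start, that of FLNA 94 bases before it, and those of ACTA2 121 and 71 bases before it, the latter pair each with 1 inner C or G. No match was found in the windows of CNN1, TPM1, VCL and MYH9, which says only that these letters are not in these 300 bases. A match is a description of the letters and not a measured site of SRF binding.

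Libraries held from 42261122 to 54241728 counts on genes, and the 10 genes took from 1.12% of them in MDA-MB468 parental control cells to 1.82% in MDA-MB468 CE cells after Acetalax. Levels are given as CPM, a gene's counts relative to its library's total, with 95% Wilson intervals in the plot of levels. All intervals cover counting error only, because each condition is 1 library. They may be too narrow even for that, since amplified reads are not independent molecules. The markers examined set the 2 lines apart, which by itself does not establish their identity. EPCAM, CDH1, KRT8 and KRT18 summed to between 3364 and 5784 CPM in MDA-MB468 and to between 5.38 and 83.3 CPM in BT549. VIM, CDH2 and ZEB1 summed to between 1032 and 1721 CPM in BT549 and to at most 9.08 CPM in MDA-MB468. Of 6 smooth muscle markers only SMTN was well above 1 CPM in either line, with MYH11, DES, LMOD1, ACTG2 and SYNPO2 at most 1.45 CPM in every library. Blood cell markers (PTPRC, CD3E and HBB) summed to at most 0.756 CPM. Of the receptors whose lack defines triple-negative tumours, ESR1 was at most 5.15 CPM and PGR at most 0.627 CPM, while ERBB2 RNA was at 41.2 to 95.2 CPM. ACTA2 overlaps FAS on the other strand (4741 counts on FAS over the 8 libraries against 13672 on ACTA2), TAGLN overlaps PCSK7 (18317 against 56107) and VCL overlaps AP3M1 (30765 against 203622). The strand column behind the counts is not stated, so these 3 genes cannot be fully told apart from their partners, and ACTB counts may miss reads shared with its processed pseudogenes.

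Levels of the 10 genes were first compared between the epithelial and the mesenchymal line. The contractile genes ACTA2, TAGLN, CNN1 and MYL9 were more than 10-fold higher in BT549 in each of the 4 conditions, whereas ACTB, FLNA, TPM1 and VCL, the general cytoskeleton, stood within 2-fold of each other in every condition. ACTA2 had 2, 1, 4 and 9 counts in MDA-MB468 (parental control, parental Acetalax, CE control and CE Acetalax, the order used for all values below). In BT549 it had 127.8, 108.8, 37.7 and 29.2 CPM. The libraries of the lines did not overlap, and in CE Acetalax cells, where MDA-MB468 had most counts, BT549 was 154.5-fold higher (counting interval 81.2 to 339). MYL9 had 5.26, 7.64, 0.702 and 0.400 CPM in MDA-MB468 and 197.3, 179.2, 133.6 and 108.1 CPM in BT549. TAGLN had 9.81, 19.4, 7.81 and 19.7 CPM in MDA-MB468 and 363.0, 367.5, 178.3 and 245.3 CPM in BT549. CNN1 was weak in both lines, with 6, 14, 3 and 11 counts in MDA-MB468 and 435, 466, 43 and 143 counts in BT549.

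**Figure D1:**
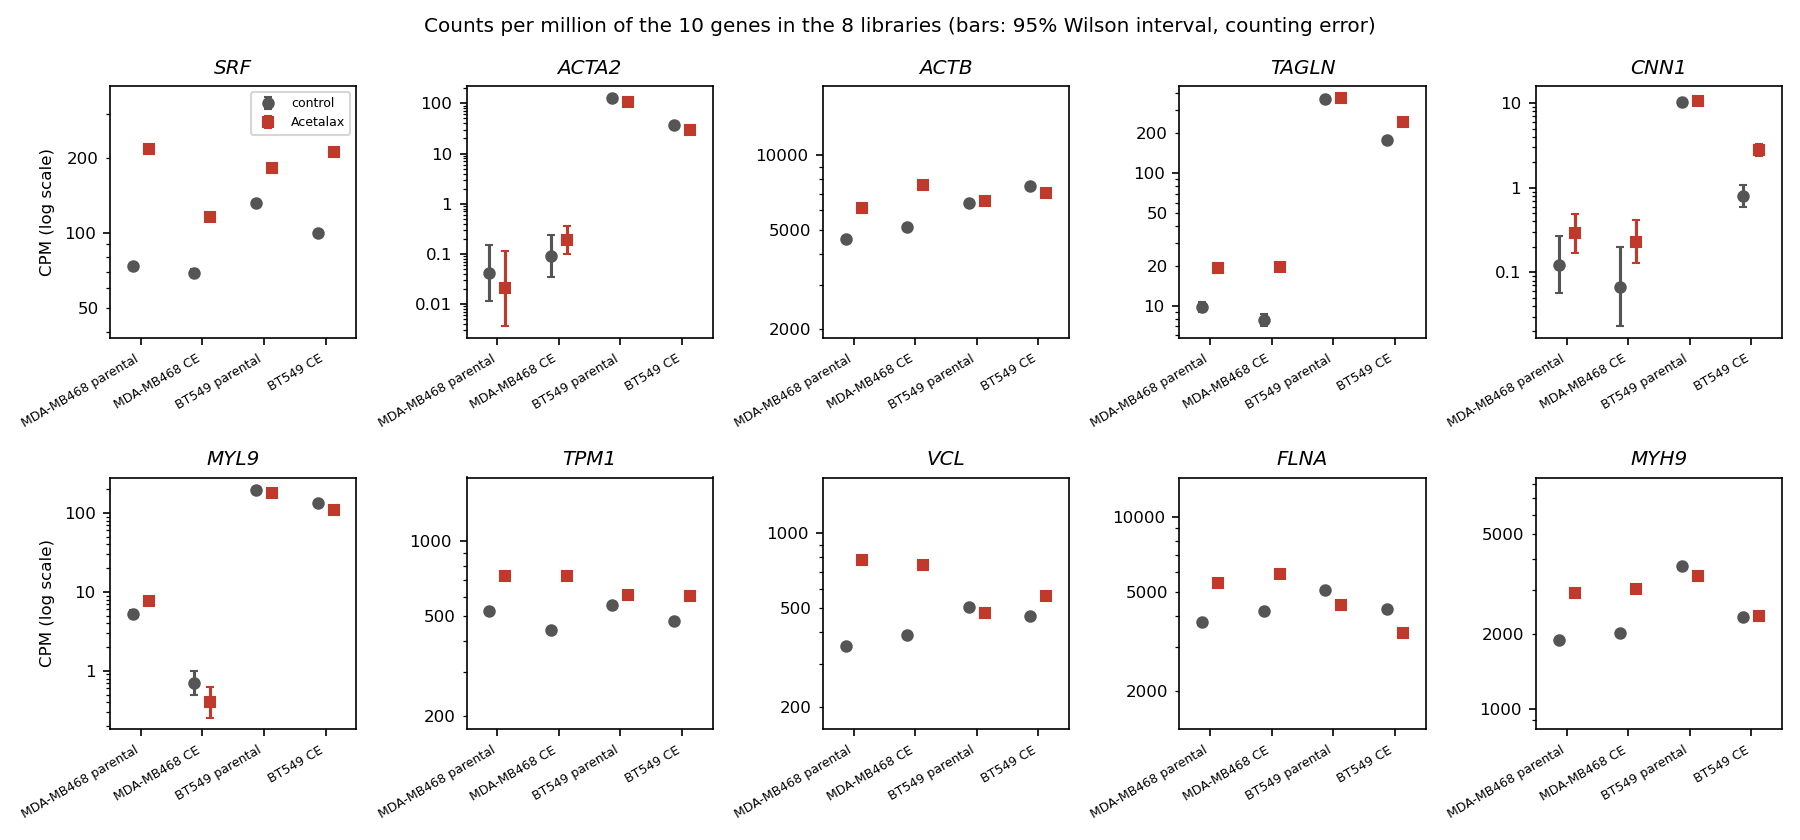
CPM (log scale) of the 10 genes, 1 panel per gene, in the 4 backgrounds; grey circles are control libraries, red squares libraries after 1 μmol/L Acetalax for 6 hours, and bars are 95% Wilson intervals for counting error. ACTA2, TAGLN, CNN1 and MYL9 sit far higher in BT549, and SRF is higher after Acetalax in each background.

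Over the 4 conditions, with each BT549 library paired with the MDA-MB468 library of the same state and treatment, 6 of the 10 genes were called higher in BT549 (edgeR's quasi-likelihood test, Benjamini-Hochberg adjusted p under 0.05 over 19693 genes), against 27.3% of all genes tested. They were ACTA2, MYL9 (log2 fold change 6.36, SE 0.76, adjusted p = 0.000749), CNN1 (4.94, SE 0.54), TAGLN (4.56, SE 0.27), SRF (0.67, SE 0.23, adjusted p = 0.0443) and ACTB (0.42, SE 0.14, adjusted p = 0.0387). The fitted value of ACTA2 (9.69) rests on 16 counts in MDA-MB468 over 4 libraries and is no estimate of the true ratio. MYH9 had a log2 fold change of 0.43 (SE 0.20, adjusted p = 0.105), and TPM1, VCL and FLNA were at 0.09, 0.08 and 0.01, with adjusted p from 0.603 to 0.975. With total counts in place of TMM scaling, SRF (0.50, adjusted p = 0.0871) and ACTB (0.25, adjusted p = 0.155) were not called. With DESeq2's size factors SRF alone was lost (adjusted p = 0.0573). ACTB was not called without any 1 of the 4 conditions (adjusted p from 0.0518 to 0.178). Nor was SRF called without any of 3 of the 4 conditions (adjusted p from 0.119 to 0.143), the exception being parental Acetalax, the only condition in which it was higher in MDA-MB468.

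Per kilobase of exon (FPKM, mean ± SD over the 4 libraries of a line), ACTB led in both lines, with 1332 ± 299 in MDA-MB468 and 1563 ± 111 in BT549. FLNA followed with 444 ± 93.2 and 396 ± 62.4, and MYH9 with 144 ± 34.8 and 173 ± 42.5. The ranges of these 3 genes did not overlap within a line. VCL (56.8 ± 22.7), TPM1 (41.2 ± 9.87) and SRF (28.1 ± 16.4) came next in MDA-MB468, with overlapping ranges. In MDA-MB468, TAGLN (2.17 ± 0.956) and MYL9 (1.25 ± 1.26) were far below them with overlapping ranges, and CNN1 (0.0626 ± 0.0353) and ACTA2 (0.0152 ± 0.0134) were lowest, again overlapping. In BT549, MYL9 (55.0 ± 14.6), VCL (50.3 ± 4.23), TAGLN (44.05 ± 14.2), TPM1 (38.2 ± 4.09) and SRF (36.9 ± 11.7) each overlapped with the next in this order, followed without overlap by ACTA2 (13.5 ± 8.83) and CNN1 (2.17 ± 1.79).

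Acetalax was then compared with control in each background. SRF rose in all 4 backgrounds. It went from 73.4 to 217.8 CPM in MDA-MB468 parental cells, from 69.0 to 115.4 CPM in MDA-MB468 CE cells, from 131.9 to 182.4 CPM in BT549 parental cells and from 100.3 to 210.7 CPM in BT549 CE cells. Within a line both treated libraries were above both control libraries; across lines the groups overlapped, since treated MDA-MB468 CE cells were below BT549 parental control cells. The log2 ratios were 1.57 (counting interval 1.51 to 1.62), 0.74 (0.68 to 0.81), 0.47 (0.42 to 0.52) and 1.07 (1.02 to 1.12). Over the 4 backgrounds the log2 fold change was 1.05 (SE 0.17, adjusted p = 0.0361, edgeR with an intercept per background, so that each treated library is set against its own control). The call was lost without the MDA-MB468 parental pair (0.87, adjusted p = 0.170) and without the BT549 CE pair (1.00, adjusted p = 0.0597).

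TPM1 was the other gene called over the 4 backgrounds. It had 527.4, 724.5, 439.1 and 728.8 CPM in MDA-MB468 and 553.3, 608.2, 480.4 and 606.3 CPM in BT549. All 4 treated libraries were above all 4 control libraries. The log2 fold change was 0.51 (SE 0.10, adjusted p = 0.0431), and the call was lost with total counts in place of TMM scaling (0.42, adjusted p = 0.0562) and without any pair other than that of BT549 parental cells (adjusted p from 0.0800 to 0.183). Thus 2 of the 10 genes were called higher and 0 lower, against 2.72% of all genes called higher. At an unadjusted p under 0.05, 7 of 10 were higher (SRF, TPM1, TAGLN, VCL, ACTB, CNN1 and MYH9) and 0 lower, against 12.5% of all genes. DESeq2 called 5 (SRF, TPM1, TAGLN, VCL and CNN1). It also called more genes in all, 2913 in either direction where edgeR called 984. The median log2 fold change of the 10 genes was 0.44 and that of all genes tested -0.04. By total counts SRF, TAGLN, CNN1 and TPM1 were higher in all 4 pairs, 4 of 10 genes against 10.7% of all genes, and with TMM scaling 5 of 10 against 16.1%.

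**Figure D2:**
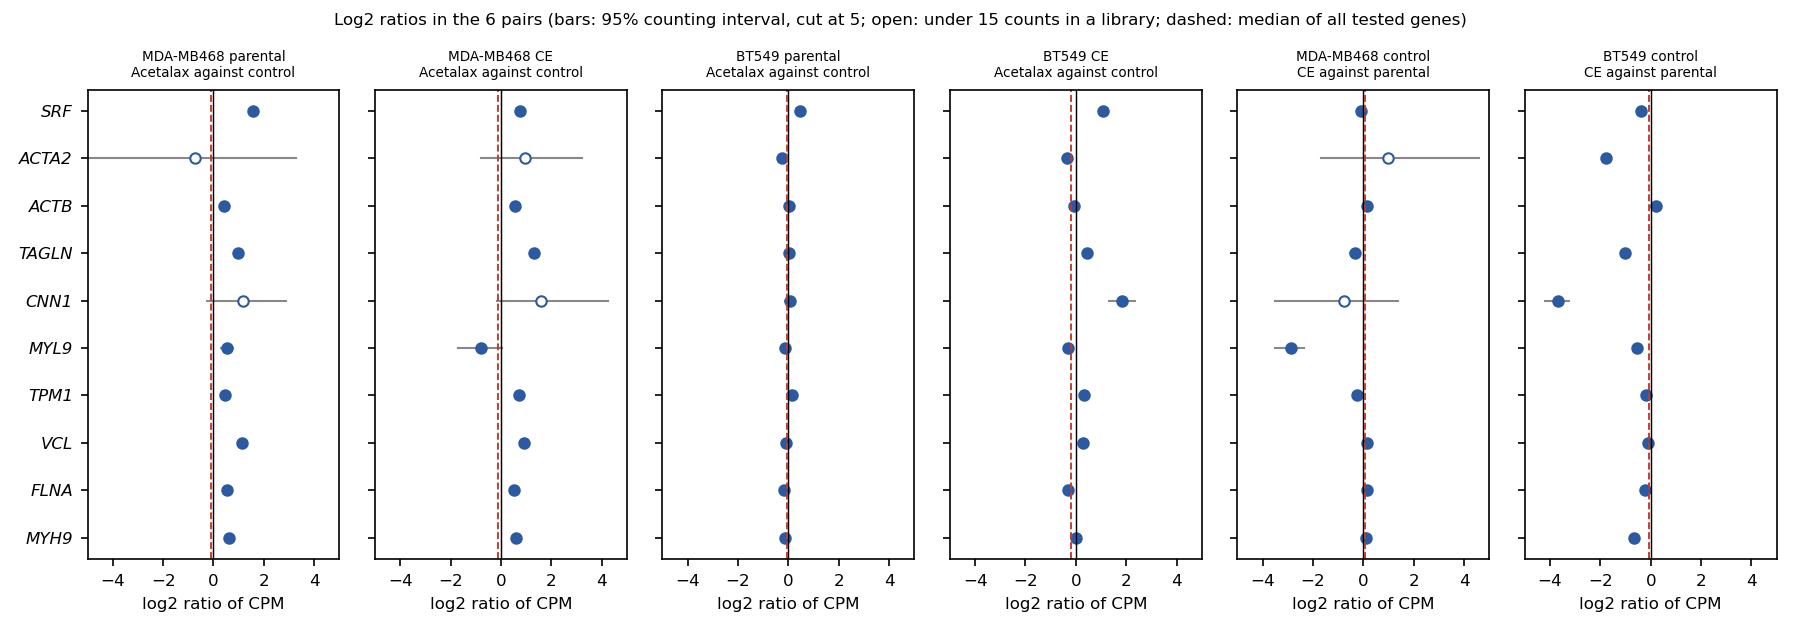
Log2 ratios of CPM (0.5 counts added) of the 10 genes in the 4 Acetalax-control pairs and the 2 CE-parental control pairs, 1 panel per pair; bars are 95% counting intervals, open points have fewer than 15 counts in a library, and the dashed line is the median of all genes tested. Most genes lie right of 0 in both MDA-MB468 Acetalax pairs and near 0 in BT549 parental cells.

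The size of the response differed between the lines for VCL, FLNA, MYH9 and ACTB. VCL rose from 353.5 to 780.0 CPM in MDA-MB468 parental cells and from 389.8 to 746.0 CPM in MDA-MB468 CE cells, and had 507.3 and 478.0 CPM without and with Acetalax in BT549 parental cells and 466.0 and 560.8 CPM in BT549 CE cells. In MDA-MB468 the treated and control libraries were far apart, and in BT549 the change had no common direction. FLNA went from 3782 to 5440 CPM and from 4166 to 5910 CPM in MDA-MB468 parental and CE cells, and from 5062 to 4442 CPM and from 4265 to 3418 CPM in BT549. Both MDA-MB468 pairs went up and both BT549 pairs went down.

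MYH9 had 1885, 2899, 2005 and 3030 CPM in MDA-MB468 and 3721, 3420, 2327 and 2346 CPM in BT549. ACTB, the most abundant of the 10 transcripts, had 4616, 6121, 5123 and 7607 CPM in MDA-MB468 and 6417, 6568, 7489 and 7062 CPM in BT549. Both genes thus gained in each MDA-MB468 pair, by 1.33 to 1.54 fold, while in BT549 the ratios lay between 0.92 and 1.02 fold. All 4 genes passed the test of the difference between the lines. The Acetalax response of BT549 minus that of MDA-MB468 on the log2 scale was -0.71 for FLNA (SE 0.07, adjusted p = 0.0115), -0.61 for MYH9 (SE 0.09, adjusted p = 0.0387), -0.46 for ACTB (SE 0.08, adjusted p = 0.0421) and -0.89 for VCL (SE 0.17, adjusted p = 0.0468). These are 4 of 10 genes, against 1.25% of all genes called lower in BT549. All 10 genes had a negative difference in this fit, with a median of -0.59 against -0.01 over all genes. TAGLN (-0.86, adjusted p = 0.104), TPM1 (-0.30, adjusted p = 0.348) and SRF (-0.33, adjusted p = 0.626) were among the 6 not called. Of those 6, SRF, ACTA2, CNN1 and MYL9 changed sign in a fit with 1 pair left out. Without either MDA-MB468 pair, when the spread comes from the BT549 pairs alone, 0 of the 4 calls remained (adjusted p from 0.127 to 0.603) while the differences stayed between -0.99 and -0.37, and with DESeq2's size factors in the edgeR fit FLNA alone was called.

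Within MDA-MB468, from its parental and CE pairs in the same 8-library fit, 7 of 10 genes were called higher after Acetalax (SRF, ACTB, TAGLN, TPM1, VCL, FLNA and MYH9) and 0 lower, against 4.23% of all genes called higher. This fit was added after the values had been seen, and its replicates are 1 parental and 1 CE pair of the same line. Its spread is estimated from the pairs of both lines. The log2 fold changes were 1.22 for SRF (SE 0.22, adjusted p = 0.0226) and for TAGLN (SE 0.16, adjusted p = 0.00799), 1.10 for VCL (SE 0.12, adjusted p = 0.00556), 0.67 for MYH9, 0.66 for TPM1, 0.58 for FLNA and 0.55 for ACTB. The same 7 genes were called with total counts, with DESeq2's size factors and with DESeq2. With a single MDA-MB468 pair, assumed to vary like the BT549 pairs, fewer were called: without the CE pair SRF, TAGLN and VCL, and without the parental pair TAGLN alone. VIM, a mesenchymal marker, was also called higher in MDA-MB468 (0.79, SE 0.14, adjusted p = 0.0189). It went from 4.63 to 8.94 CPM in parental and from 1.77 to 2.36 CPM in CE cells. The other mesenchymal markers did not rise with it: ZEB1 was not called (-0.46, SE 0.40, adjusted p = 0.537) and CDH2 was at 0 CPM. Of the 4 epithelial markers 0 were called in either direction. The part of VIM in these results was not tested. Within BT549, SRF was called (0.89, SE 0.22, adjusted p = 0.0400), 1 of 10 genes against 5.72% of all genes called higher, and it was not called without the BT549 CE pair (0.54, adjusted p = 0.174). Without the BT549 parental pair the BT549 value is that of 1 pair, assumed to vary like the MDA-MB468 pairs. With TMM scaling, that CE pair had log2 ratios of 1.23 for SRF, 1.98 for CNN1, 0.62 for TAGLN, 0.49 for TPM1 and 0.42 for VCL. The ratios of MYH9, ACTB, MYL9, FLNA and ACTA2 in it were 0.17, 0.07, -0.15, -0.16 and -0.21. The other 9 genes in BT549 had fitted log2 fold changes between -0.18 (ACTA2) and 0.91 (CNN1, SE 0.40, adjusted p = 0.162). ACTB and MYH9 were slightly above 0 there (0.09 and 0.06) and slightly below it with total counts (-0.03 and -0.06), so their direction in BT549 depends on the scaling, and FLNA was called lower with total counts (-0.25, adjusted p = 0.0195).

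**Figure D3:**
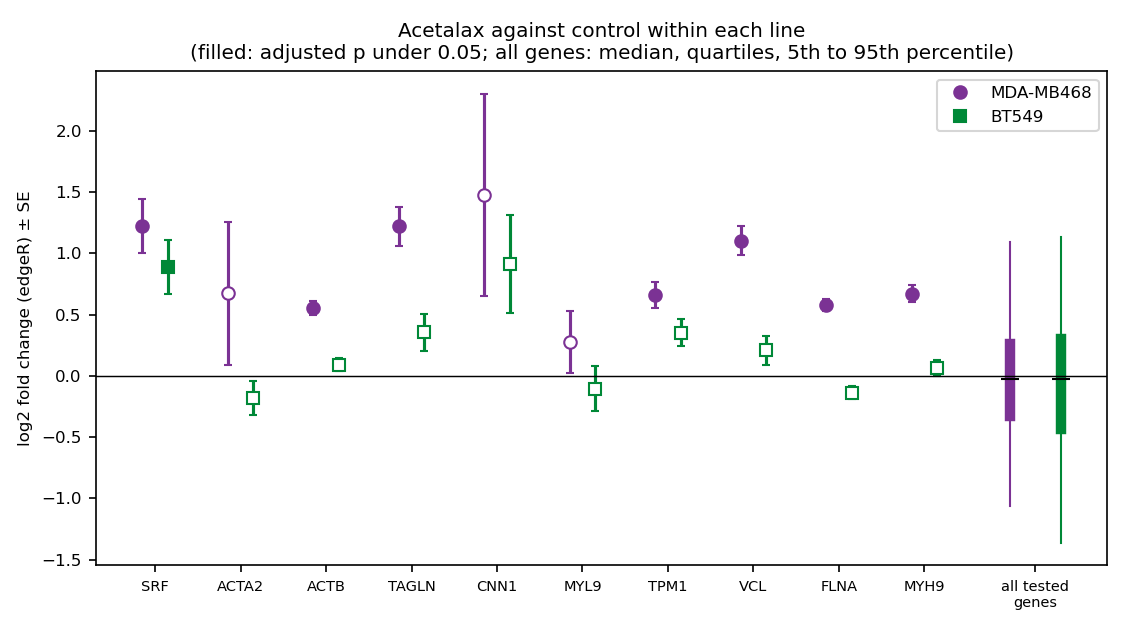
Log2 fold change after Acetalax (edgeR, ± SE) of each gene within MDA-MB468 (purple circles) and BT549 (green squares), filled where the adjusted p is under 0.05, beside the spread of all genes tested (median, quartiles, percentiles 5 and 95). The 7 filled circles lie between 0.55 and 1.22, and SRF is the only filled square.

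Library by library, the count of genes at least 1.5 fold higher was 5 of 10 in MDA-MB468 parental cells (14.1% of all genes), 7 of 10 in MDA-MB468 CE cells (9.79%), 0 of 10 in BT549 parental cells (12.4%) and 2 of 10 in BT549 CE cells (12.8%). At least 1.5 fold lower were 1 of 10 in MDA-MB468 parental cells (19.4%), 1 of 10 in MDA-MB468 CE cells (15.5%), and 0 of 10 in BT549 parental (16.0%) and BT549 CE cells (31.1%). These counts include genes with few reads. CNN1, counted as higher in both MDA-MB468 backgrounds, had 14 against 6 and 11 against 3 counts, and ACTA2, higher in CE cells, 9 against 4, all with counting intervals that span 0. The lower gene in MDA-MB468 parental cells was ACTA2, with 1 against 2 counts, and the one in CE cells MYL9, with 19 against 31 counts (counting interval of the log2 ratio -1.72 to 0.06). The medians of the 10 genes were 0.58, 0.74, -0.03 and 0.14 in this order of backgrounds, beside -0.10, -0.10, -0.06 and -0.21 over all genes, and with TMM scaling 0.64, 0.81, 0.05 and 0.30 beside -0.05, -0.03, 0.02 and -0.05.

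Contractile genes followed no common course after Acetalax. TAGLN roughly doubled in both MDA-MB468 backgrounds from a low level (log2 ratios 0.98 and 1.33), had a ratio of 0.02 in BT549 parental cells (counting interval -0.01 to 0.05) and of 0.46 (0.42 to 0.50) in BT549 CE cells. CNN1 in BT549 CE cells had 43 counts in control and 143 after Acetalax, a log2 ratio of 1.82 (1.33 to 2.36), beside 0.06 (-0.13 to 0.25) in BT549 parental cells. ACTA2 was lower after Acetalax in both BT549 pairs by the counts (-0.23 and -0.37), but its fitted change there was not called (-0.18, SE 0.14, adjusted p = 0.415). MYL9 had fitted changes of 0.28 (SE 0.25) in MDA-MB468 and -0.10 (SE 0.18) in BT549, neither of them called.

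Other genes of the pathway were examined as lists. Of 35 further actin, myosin and adhesion genes of the MRTF type, 7 were called higher after Acetalax over the 4 backgrounds (2.72% of all genes were) and 0 lower. At an unadjusted p under 0.05, 23 were higher (12.5% of all genes) and 1 lower, and the median was 0.32 against -0.04 over all genes. CSRP1, a LIM protein of actin bundles, was the called gene with the largest rise (1.14, SE 0.23, adjusted p = 0.0424). It had 153.7, 457.8, 157.1 and 464.8 CPM in MDA-MB468 and 201.3, 223.4, 200.5 and 366.4 CPM in BT549. PDLIM5, a scaffold of α-actinin, had 101.4, 274.6, 109.8 and 238.9 CPM in MDA-MB468 and 276.6, 259.7, 231.3 and 278.4 CPM in BT549, and its response was lower in BT549 (-1.14, SE 0.19, adjusted p = 0.0421). Within MDA-MB468, 16 of the 35 were called higher (4.23% of all genes) and 0 lower (median 0.38). Within BT549, 6 were called higher (5.72% of all genes) and 3 lower, the latter a share close to that of all genes (7.27%), with a median of 0.21. MYLK (myosin light chain kinase) and MYH10, a non-muscle myosin heavy chain, were at -0.80 and -0.42 there. In the test of the difference between the lines, 2 of 35 were called, both lower in BT549 (1.25% of all genes), and 18 were lower (10.4% of all genes) and 0 higher at an unadjusted p under 0.05.

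Of the 9 immediate early genes of the TCF type, 8 had a positive fitted change over the 4 backgrounds (median 0.55 against -0.04 over all genes). Among them 1 was called higher (MCL1, 2.72% of all genes) and 0 lower. At an unadjusted p under 0.05, 5 were higher (12.5% of all genes) and 0 lower. Within BT549, 7 were called higher (5.72% of all genes) and 0 lower (EGR1, EGR2, EGR3, FOSB, JUNB, MCL1 and NR4A1, median 0.81). Within MDA-MB468, 0 were called higher (4.23% of all genes), with 3 higher at an unadjusted p under 0.05. Called lower there were 2 (2.41% of all genes), EGR2 (-1.39, adjusted p = 0.0377) and FOS (-1.77, adjusted p = 0.0127). FOS, a subunit of the AP-1 factor, had 204.6, 39.8, 178.6 and 71.8 CPM in MDA-MB468 and 31.5, 43.6, 116.4 and 89.6 CPM in BT549. EGR2, a zinc finger factor, had 1.23, 0.329, 1.495 and 0.694 CPM in MDA-MB468 and 1.30, 3.59, 3.58 and 10.5 CPM in BT549. It went down in both MDA-MB468 pairs and up in both BT549 pairs, and the difference between the lines was 3.03 (SE 0.38, adjusted p = 0.0232). All 9 genes had a higher fitted response in BT549 (median difference 1.72 against -0.01 over all genes), of which 3 were called, against 0.533% of all genes. The MRTF-type median difference was -0.30, and the lists were not tested against each other.

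**Figure D4:**
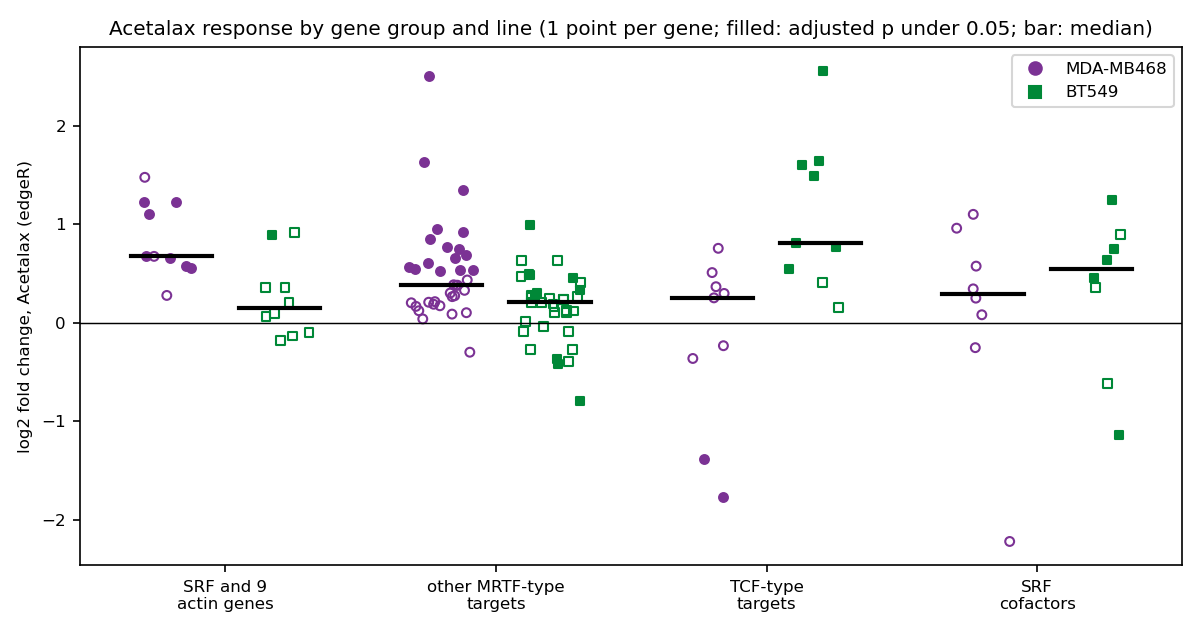
Log2 fold change after Acetalax (edgeR) within MDA-MB468 (purple circles) and BT549 (green squares), 1 point per gene, for the 10 genes and 3 further lists; filled points have an adjusted p under 0.05 and black bars are medians. The actin genes sit higher in MDA-MB468 (median 0.67 against 0.15) and the TCF-type genes higher in BT549 (0.81 against 0.25).

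Among 8 SRF cofactors, FHL2 (1.09, SE 0.22), ELK3 (0.99, SE 0.21) and ELK1 (0.61, SE 0.11) were called higher over the 4 backgrounds (2.72% of all genes), with adjusted p from 0.0377 to 0.0445, and 0 were called lower. FHL2, a LIM protein that binds SRF, had 181.2, 398.7, 281.7 and 442.7 CPM in MDA-MB468 and 40.4, 54.2, 40.4 and 142.0 CPM in BT549. MKL1 and MKL2, the MRTFs, went apart in BT549, where MKL1 rose (0.45, SE 0.12, adjusted p = 0.0475) and MKL2 fell (-1.14, SE 0.24, adjusted p = 0.0279), from 40.6 to 25.3 CPM in parental and from 39.2 to 10.9 CPM in CE cells. In MDA-MB468 their fitted changes were 0.25 and -0.25 and were not called. MYOCD, the cofactor of smooth muscle, stood at 7.87 and 7.20 CPM in BT549 CE cells without and with Acetalax and at no more than 0.529 CPM elsewhere. The promoter window held a CArG box in 7 of 34 MRTF-type genes with a window (ACTG1, ACTN1, CNN2, TPM4, MYLK, FHL1 and TES). It held 1 in FHL2 among 5 cofactors and in EGR1 and EGR2 among 7 TCF-type genes, against 1.6% of all genes with a window. The lists themselves were chosen as cofactors and targets of SRF.

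CE cells were compared with parental cells of the same line and treatment. Over the 4 pairs 0 of the 10 genes were called by edgeR, against 0.117% of all genes. At an unadjusted p under 0.05, 1 was higher (ACTB) and 3 lower (TAGLN, CNN1 and MYL9). DESeq2 called CNN1 and MYL9, and over all genes it called 1010 in either direction where edgeR called 23. The changes differed between the lines. The CE change of BT549 minus that of MDA-MB468 was called higher for MYL9 (3.02, SE 0.33, adjusted p = 0.00123), 1 of 10 genes against 7.3% of all genes. It was called lower for ACTA2 (-3.78, SE 0.64, adjusted p = 0.00816), MYH9 (-0.56, SE 0.09, adjusted p = 0.00869) and FLNA (-0.31, SE 0.07, adjusted p = 0.0274), 3 of 10 genes against 4.91%. The value of ACTA2 rests on between 1 and 9 counts in MDA-MB468 and was not called without the MDA-MB468 Acetalax pair (adjusted p = 0.170), that of FLNA was lost with DESeq2's size factors (adjusted p = 0.125), and MYH9 and FLNA were lost without either MDA-MB468 pair (adjusted p from 0.234 to 0.559).

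In MDA-MB468, MYL9 was the gene that changed. It had 256 and 371 counts in parental cells without and with Acetalax, and 31 and 19 in CE cells, so the CE libraries were below both parental ones. The fitted change within MDA-MB468 was -3.58 (SE 0.27, adjusted p = 0.000594), 1 of 10 genes against 2.53% of all genes called lower, and the call was kept under every alternative run. Without either MDA-MB468 pair that value rests on 1 CE and 1 parental library, assumed to vary like the BT549 libraries. KRT8 and KRT18 were called higher and VIM lower in the same CE cells, while EPCAM, CDH1 and ZEB1 were not called. The part of these markers in the fall of MYL9 was not tested. SRF in MDA-MB468 had 73.4 CPM in parental and 69.0 CPM in CE control cells, and 217.8 and 115.4 CPM after Acetalax, with a fitted CE change of -0.54 that was not called (adjusted p = 0.269).

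In BT549 the genes called lower were others. ACTA2 went from 127.8 to 37.7 CPM in control and from 108.8 to 29.2 CPM in treated cells, CNN1 from 435 to 43 and from 466 to 143 counts, and TAGLN from 363.0 to 178.3 and from 367.5 to 245.3 CPM. In all 3 genes both CE libraries were below both parental libraries. The fitted changes within BT549 were -1.74 (SE 0.14, adjusted p = 0.000168) for ACTA2, -2.63 (SE 0.41, adjusted p = 0.00336) for CNN1 and -0.71 (SE 0.15, adjusted p = 0.0132) for TAGLN. MYH9 fell from 3721 to 2327 and from 3420 to 2346 CPM (-0.52, SE 0.07, adjusted p = 0.00146) and FLNA changed by -0.22 (SE 0.05, adjusted p = 0.0172), which makes 5 of 10 genes called lower against 10.1% of all genes. ACTB was called higher (0.26, SE 0.06, adjusted p = 0.0141). The calls of ACTA2, CNN1 and MYH9 were kept under every alternative run, although without a BT549 pair the spread comes from MDA-MB468. FLNA was lost with DESeq2 (adjusted p = 0.290), with its size factors in edgeR (adjusted p = 0.101) and without any 1 of the 4 pairs (adjusted p from 0.0627 to 0.337), ACTB with DESeq2 (adjusted p = 0.0816) and with total counts (adjusted p = 0.0618), and TAGLN without the BT549 control pair (-0.39, adjusted p = 0.149). MYL9 in BT549 fell as well, from 197.3 to 133.6 CPM in control and from 179.2 to 108.1 CPM in treated cells. Its fitted change of -0.55 (SE 0.19, adjusted p = 0.0703) was not called. TPM1, VCL and SRF had fitted changes between -0.01 and 0.15.

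Epithelial and mesenchymal markers moved with these changes in BT549. The summed level of the 4 epithelial markers was 8.35 and 5.38 CPM in parental and 83.3 and 50.2 CPM in CE cells, with CDH1, KRT8 and KRT18 called higher and EPCAM at most 0.189 CPM. The 3 mesenchymal markers summed to 1636 and 1721 CPM in parental and 1032 and 1145 CPM in CE cells, with VIM and CDH2 called lower. The 6 smooth muscle markers, of which SMTN carried the sum, came to 165.0 and 157.6 CPM in parental and 92.5 and 53.9 CPM in CE cells; SMTN was called lower (-1.12, adjusted p = 0.00227) and SYNPO2, at most 1.18 CPM, higher (1.43, adjusted p = 0.0230). MYOCD, given above, was called higher in the same cells. The part of these in the fall of ACTA2, CNN1 and TAGLN was not tested, and in bulk RNA fewer cells that express a gene and less of its RNA per cell cannot be told apart. Of the 35 MRTF-type genes, 10 were called higher (12.3% of all genes) and 5 lower (10.1%) in BT549 CE cells (median 0.24). LIMA1, an actin crosslinker, went from 39.1 to 297.0 CPM in control cells and its CE change differed between the lines by 3.32 (SE 0.24, adjusted p = 0.000175).

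**Figure D5:**
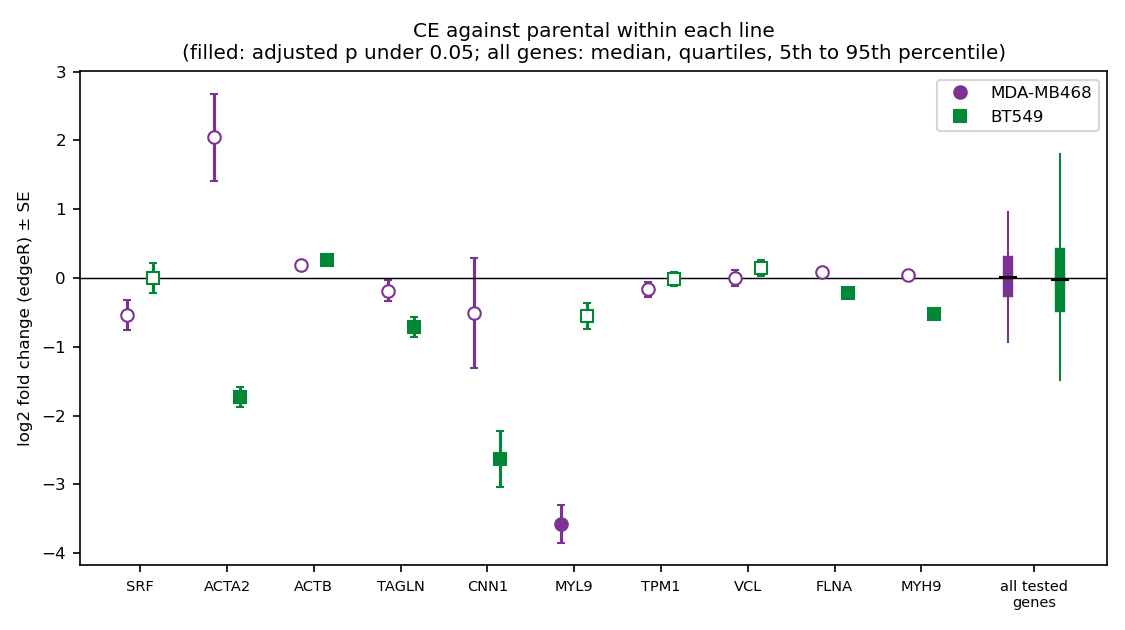
Log2 fold change of CE against parental cells (edgeR, ± SE) of each gene within MDA-MB468 (purple circles) and BT549 (green squares), filled where the adjusted p is under 0.05, beside the spread of all genes tested. MYL9 is the filled circle at -3.58, and ACTA2, CNN1, TAGLN, MYH9 and FLNA are filled squares below 0.

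In the control libraries alone, 1 of the 10 genes was at least 1.5 fold higher in CE than in parental MDA-MB468 cells (13.2% of all genes) and 2 lower (8.63%), namely ACTA2 with 4 against 2 counts, and MYL9 and CNN1, the latter with 3 against 6 counts. In BT549, 0 were higher (19.0%) and 4 lower (19.4%), namely ACTA2, TAGLN, CNN1 and MYH9, with log2 ratios of -1.76, -1.03, -3.68 and -0.68. The control libraries serve in both the CE-parental and the Acetalax-control pairs, so these ratios are not independent of each other. For CNN1 in BT549 CE cells, for example, the same control library of 43 counts gives the ratio of -3.68 to parental cells and that of 1.82 after Acetalax.

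Whether CE cells answered Acetalax differently from parental cells was tested as a difference of responses over both lines. Of the 10 genes 0 were called by edgeR, against 0.0% of all genes, with 91 genes at an unadjusted p under 0.05 and 0 calls by DESeq2. CNN1 had the largest difference (1.47 higher in CE cells, SE 0.60, unadjusted p = 0.0438, adjusted p = 1). For SRF the difference was -0.07 (SE 0.38), with opposite signs in the lines: its ratio was 1.57 in parental and 0.74 in CE cells of MDA-MB468, and 0.47 and 1.07 in BT549. The 2 pairs on each side come from different lines, so the spread in this fit includes differences of response between the lines. The lack of a call for SRF therefore does not show that CE and parental cells responded alike.

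Over the 8 libraries, the 5 genes whose log2 CPM most resembled SRF (among the 11135 genes that averaged 5 CPM or more) were PIM1 (Pearson's r = 0.982), PPP1R15A (0.980), CDR2 (0.978), LARP4 (0.977) and PIP5K1A (0.967). PIM1, a serine/threonine kinase, had 21.3, 161.6, 30.2 and 58.0 CPM in MDA-MB468 and 66.3, 145.5, 51.8 and 162.7 CPM in BT549. PPP1R15A (GADD34), a phosphatase subunit of the integrated stress response, had 46.1, 356.3, 49.99 and 84.0 CPM in MDA-MB468 and 140.0, 239.6, 71.0 and 230.4 CPM in BT549. Both were highest in the treated MDA-MB468 parental, BT549 parental and BT549 CE libraries, as SRF was. Of the other 9 genes followed here, TPM1 (0.705) and VCL (0.683) were most like SRF, at ranks 544 and 631, and FLNA was at 0.158; CNN1 averaged less than 5 CPM and was not ranked. These values are a description over 8 libraries that share their lines, states and treatments.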

How the data were processed

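RNA-seq of 2 established triple-negative breast cancer lines was analysed as 8 libraries, 1 per condition, with conditions from the labels and doses and times from the study's methods. The authors read polyadenylated RNA with a directional kit, aligned reads to hg19 with STAR (the labels name version 2.7.11b and the text of the study another), and deposited raw counts per gene without normalization; the annotation and strand column are not given in the sources used here. The table has 58154 rows for 55679 identifiers, and each of the 1392 repeated ones was kept 1 time. None of the 10 genes is repeated. Libraries held from 42261122 to 54241728 counts, so 1 CPM is 42.3 to 54.2 counts.

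From the deposited counts, CPM (total counts), FPKM (merged exon lengths from a GENCODE annotation on GRCh37) and log2 ratios (0.5 counts added, Clopper-Pearson 95% intervals) were computed. Tests used edgeR 4.0.16 in R 4.3.3 (quasi-likelihood, TMM, filterByExpr, Benjamini-Hochberg over 19693 genes, threshold 0.05) on all 8 libraries. The Acetalax fit had an intercept per background, the CE fit 1 per line and treatment, and the line fit 1 per state and treatment; differences between lines or states were interaction terms (2 or 3 residual degrees of freedom). Pairs of libraries thus stand as replicates, and since the CE cells derive from the parental ones, p-values measure the spread between these pairs and not between independent lines. Fits within 1 line were added after the values had been seen. A difference between 2 single libraries has no replicate check. The tests were tried on simulated counts that varied less than these and had the same base level in both lines. That trial therefore does not measure their error rates on these data.

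The genes and lists were chosen with earlier results of these data known. The text names the 10 genes, of each list the 3 genes with the largest rise and fall in the Acetalax, CE or line test, the 5 genes most like SRF, and markers; other genes given beside a count or a CArG box were named after their values were seen. Alternatives were DESeq2's size factors, total counts, no filter, DESeq2 1.42.0, each pair left out, parental or CE cells alone, control libraries alone, and for ratios other scalings, 5 counts added and log2(FPKM+1). Python 3.11.15 and SciPy 1.17.1 were used for the ratios. A gene and a gene list that this rule covers are not reported here.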

Additional observations from a re-analysis of the deposited data

Results flagged for a closer look

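Responses that differed between the lines were singled out by the test of the difference itself. For Acetalax, the log2 response in BT549 minus that in MDA-MB468 was -0.715 for FLNA, -0.61 for MYH9, -0.461 for ACTB and -0.895 for VCL. FLNA went up in both MDA-MB468 pairs and down in both BT549 pairs, and the other 3 genes went up in both MDA-MB468 pairs by more than in either BT549 pair. For CE against parental cells, the change in BT549 minus that in MDA-MB468 was -3.78 for ACTA2, 3.02 for MYL9, -0.556 for MYH9 and -0.311 for FLNA. In MYL9 both lines were lower in CE cells and MDA-MB468 by far more, while the ACTA2 value rests on 1 to 9 counts in MDA-MB468. No cause of these differences was tested.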

How the results depend on the processing

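No result changed direction past its threshold, but some values that were not called changed sign. In the difference of the Acetalax response between the lines, SRF went from -0.33 to 0.08 and MYL9 from -0.38 to 0.64 without the MDA-MB468 parental pair. ACTA2 went from -0.85 to 0.68 without the MDA-MB468 CE pair, and CNN1 from -0.56 to 0.49 without the BT549 parental pair. Counts of calls moved more. Over all genes, Acetalax gave 984 calls, but 3585 without the filter on low counts, 2913 with DESeq2, 0 with parental cells only, 0 with CE cells only, and 0 to 554 with 1 pair left out. The difference of this response between the lines gave 351 calls, but 1632 without the filter, 941 with DESeq2 and 100 to 1360 with 1 pair left out. That between CE and parental cells gave 0, but 3 without the filter and 0 to 2 with 1 pair left out. CE gave 23, but 446 without the filter, 1010 with DESeq2, 0 with control libraries only and 0 to 10 with 1 pair left out. With 1 pair left out, the difference of the CE change between the lines gave 1294 to 2907 calls (2405 in all), Acetalax 115 to 3518 within MDA-MB468 (1307) and 636 to 3757 within BT549 (2558), and CE 292 to 1711 within MDA-MB468 (870).

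Of the 10 genes, Acetalax called 2, but 1 with total counts, 8 without the filter, 5 with DESeq2, 0 with parental cells only, 0 with CE cells only, and 0 to 2 with 1 pair left out. The difference between the lines called 4, but 1 with DESeq2's size factors and 0 to 5 with 1 pair left out. CE called 0, but 2 with DESeq2, and its difference between the lines 4, but 2 with DESeq2 and 1 to 6 with 1 pair left out. Acetalax called 7 within MDA-MB468 (1 to 7 with 1 pair left out) and 1 within BT549 (2 with total counts, 0 to 5 with 1 pair left out), and CE 1 within MDA-MB468 (1 to 2 with 1 pair left out). Past 1.5 fold in either direction were 8 genes in the MDA-MB468 CE Acetalax pair, but 5 on log2(FPKM+1), and 3 between MDA-MB468 CE and parental control cells, but 1 with 5 counts added and 1 on log2(FPKM+1).

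Without either MDA-MB468 pair the calls of all 4 differences between the lines in the response to Acetalax were lost, while their sizes stayed between -0.99 and -0.37. Fits with 1 pair left out of a line take the spread from the other line. Each condition is 1 library, and every main fit already pairs libraries of matching conditions, so no other replicate number exists. With 1 to 31 counts, ACTA2 and CNN1 in MDA-MB468 and MYL9 in its CE cells are limited by depth. The cause of these shifts was not tested.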
